A study of Mus musculus with 2 samples.

Results

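The 5 genes described here, Cybb, Cyba, Ncf1, Ncf4 and Rac2, encode proteins of the phagocyte NADPH oxidase. They were taken by symbol from the 32285 genes listed in both deposited count matrices, and their RNA was followed across bone marrow cell classes and across the 2 libraries of the study. One library (Ctrl) came from control mice and the other (cKO) from Map4k4-cKO mice, 13 to 14 weeks old in both cases. Each library held c-Kit+ progenitors, enriched on magnetic beads, added in 2 parts to 3 parts of marrow from which red cells had been lysed. The methods give the cKO genotype as Mx1-Cre Map4k4 f/f and the control genotype as Mx1-Cre Map4k4-/-. The -/- notation is not explained there, and it may denote littermates without floxed alleles, since the study uses these mice as its control. Mx1-Cre is driven by an interferon-inducible promoter, and poly I:C was injected weeks before harvest to delete the floxed alleles in the cKO mice. Whether the control mice also received it, and how many mice went into a library, was not stated. The study asked how loss of MAP4K4 affects neutrophil differentiation, and these genes are read here along that course and between the libraries.

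The oxidase makes superoxide by passing electrons from NADPH across a membrane to oxygen, and it is the source of the respiratory burst with which neutrophils and monocytes kill microbes. Cybb encodes the catalytic, electron-carrying chain of flavocytochrome b558 (NOX2, gp91phox) and Cyba its partner p22phox, without which the catalytic chain is unstable. Ncf1 (p47phox) is the cytosolic organiser that carries the activating complex to the membrane, and Ncf4 (p40phox) is a cytosolic subunit that binds a phagosome lipid. Rac2 is the blood-cell GTPase that completes the active complex. Loss of CYBB, CYBA, NCF1 or NCF4 function causes chronic granulomatous disease in humans, and a dominant negative RAC2 variant causes a neutrophil immunodeficiency. By flow cytometry, the study found no significant difference in reactive oxygen species between cKO and control mice. It measured neutrophils and their precursors from marrow, and neutrophils from spleen and blood. The RNA levels below do not measure oxidase activity.

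In GRCm38, with GENCODE vM21 gene models, Cybb lies on the minus strand at chrX:9435252-9487771. Cyba is on the minus strand at chr8:122424776-122432930, where an antisense gene overlaps it without sharing exon bases. Ncf1 is on the minus strand at chr5:134220053-134229625 and shares 408 exon bases with Gtf2ird2 on the opposite strand. Gtf2ird2 had 335 UMIs in Ctrl and 188 in cKO against 28727 and 31107 for Ncf1, so that misassigned UMIs of this neighbour would be few. Ncf4 (plus strand, chr15:78244801-78262580) and Rac2 (minus strand, chr15:78559167-78572783) share a chromosome, with 296586 bases and 17 annotated genes between them, 10 of them protein-coding. Exon lengths ran from 1039 bases for Cyba through 2020 for Ncf4, 3103 for Rac2 and 3663 for Ncf1 to 5808 for Cybb.

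The sequences just upstream of the start are shown because Cybb was the member whose RNA changed most steeply between classes. RefSeq upstream sequence (GRCm38.p6) was matched for 3 of the 5 members, and the 150 bases before the RefSeq start are printed 5′ to 3′ on the gene's strand. For Cybb that start lies inside the GENCODE gene model, which also holds a longer transcript, and the printed bases fall in an intron of that transcript. Capitals mark a CCAAT box in Cybb and GC boxes (GGGCGG, or CCGCCC where it reads on the other strand) in Cyba and Ncf1.
Cybb (minus strand, chrX:9469325-9469474): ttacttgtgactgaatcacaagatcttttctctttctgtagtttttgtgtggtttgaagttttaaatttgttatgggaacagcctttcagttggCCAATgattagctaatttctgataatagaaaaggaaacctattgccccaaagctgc
Cyba (minus strand, chr8:122432941-122433090): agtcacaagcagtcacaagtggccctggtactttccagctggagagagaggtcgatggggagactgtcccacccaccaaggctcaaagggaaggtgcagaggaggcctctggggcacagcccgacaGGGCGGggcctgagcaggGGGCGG
Ncf1 (minus strand, chr5:134229626-134229775): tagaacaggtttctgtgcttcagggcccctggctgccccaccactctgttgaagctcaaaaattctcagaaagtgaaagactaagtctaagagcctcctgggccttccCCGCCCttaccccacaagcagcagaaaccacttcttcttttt
The 30 bases that follow the RefSeq start of Cybb hold, on the opposite strand, a PU.1 core (GAGGAA) that overlaps an ETS-IRF composite (GGAA and GAAA with 2 bases of any kind between them), and capitals mark both together.
Cybb, just after the start (minus strand, chrX:9469295-9469324): tgtTTTCATTTCCTCatcagaagaagaagc

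Both strands of each 300-base window around the start were searched for these 4 motifs. Of the 32851 promoters in the same table, 28.3% held GAGGAA, 2.72% held the composite, 37.4% held CCAAT and 35.7% held GGGCGG, so that the composite was the rarest of the motifs found. The Cybb upstream sequence was poor in G and C (34%, below all but 3.87% of promoters), whereas those of Cyba (60%) and Ncf1 (54.4%) lay on the other side of the median of 52.4%; these G and C contents are over 250 upstream bases. A match is a description of letters and not of binding.

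The deposited matrices held 71527701 UMIs over 10220 barcodes in Ctrl and 64393950 UMIs over 6872 barcodes in cKO. UMIs (unique molecular identifiers) count single captured RNA molecules from their 3′ end. Cells with 1000 or more UMIs were placed in classes by fixed marker genes, none of them an oxidase gene, and 79.7% of 8795 Ctrl cells and 76.5% of 5347 cKO cells met exactly 1 gate. The neutrophil series was HSC/MPP-like (334 Ctrl and 102 cKO cells), a class of moderate primary granule RNA that stayed unnamed because progenitor genes such as Cd34 led it (230 and 55), then ProNeu-like (832 and 521), cycling PreNeu-like (1040 and 636), imNeu-like (1148 and 853), imNeu/mNeu-like (278 and 351) and mNeu-like (1311 and 1141). Elane and Mpo were among the 10 leading genes of ProNeu-like cells, Camp and Ngp among those of PreNeu-like and Retnlg and Il1b among those of mNeu-like cells. All of these are gate markers, so their places were in part set by the gates. In imNeu-like cells Ltf was the only 1 of the 10 that is a gate marker. The median cell held 4940 UMIs in Ctrl and 8783 in cKO, and cKO was the deeper library in every class. The 2 libraries shared 3010 barcodes (29.5% of those in Ctrl and 43.8% of those in cKO); of 1796 that were gated in both, 13.5% had the same class against 11.9% given by the class shares, and all were kept. Map4k4 itself was at 72.3 CPM (UMIs of the gene per 1000000 UMIs) in Ctrl and 64.0 in cKO (log2 ratio −0.18, 95% interval −0.24 to −0.12). Counts from the 3′ end need not cover the deleted part of the gene, so this level cannot check the deletion, and cKO is used here as a label. The study reported loss of the Map4k4 transcript in stem and progenitor cells by RT-PCR. The ratio above is over all kept cells, whose mix of classes differed between the libraries. In HSC/MPP-like cells alone Map4k4 was not lower in cKO, with 139.5 CPM in Ctrl and 144.1 in cKO (log2 0.05, −0.21 to 0.29). It was lower in cKO in mNeu-like cells (log2 −0.40, −0.55 to −0.24). No library had a replicate, so no test between groups could be made. Intervals below are exact 95% Poisson intervals for CPM and exact 95% binomial intervals for ratios and shares. For the proportion of 1 member to another compared between the libraries they are normal approximations on the log scale. All of them cover counting error only.

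As a share of all UMIs of a class, oxidase RNA was highest late in the series. Summed over the 5 members, the level in Ctrl was 559.5 CPM at the HSC/MPP-like end, 1314 for ProNeu-like, 5249 for PreNeu-like, 6487 for imNeu-like and 4189 for mNeu-like cells. In cKO these classes held 532, 1669, 5784, 7020.02 and 4562 CPM. The largest step along the series was therefore at the passage from ProNeu-like to PreNeu-like cells, in both libraries. In CPM the sum was highest in imNeu-like cells. In raw UMIs per cell, each of the 5 members was instead highest in PreNeu-like cells of the series, in both libraries. Median depth in Ctrl was 10531.5 UMIs for PreNeu-like, 4937.5 for imNeu-like and 2538 for mNeu-like cells. All 5 members were at least 1.5-fold higher in PreNeu-like than in ProNeu-like cells in both libraries, against 11.5% of the 9768 genes compared.

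**Figure D1:**
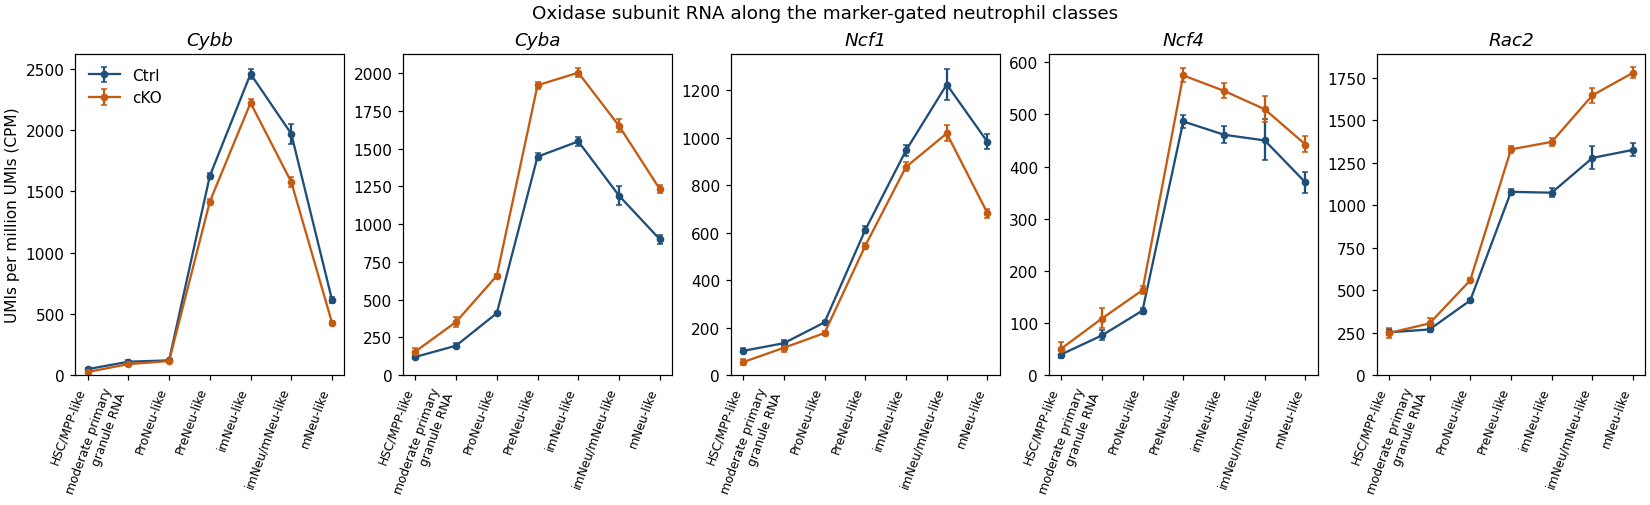
CPM of each oxidase gene (linear axis from 0) in 7 classes ordered along neutrophil differentiation, with Ctrl and cKO as separate lines and exact 95% Poisson intervals as bars. Cybb is at or under 119.6 CPM up to ProNeu-like cells, is at 2459 (Ctrl) and 2223 (cKO) for imNeu-like cells and lower again, at 613 and 426, for mNeu-like cells, while Rac2 is highest in mNeu-like cells.

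Cybb, the catalytic chain, had the steepest course of the 5. Along the 7 classes, from HSC/MPP-like and moderate primary granule cells through ProNeu-like, PreNeu-like and imNeu-like to imNeu/mNeu-like and mNeu-like cells, it was at 47.7, 109, 119.6, 1626, 2459, 1969.8 and 613 CPM in Ctrl. In cKO the same order gave 24.8, 89.0, 114, 1416, 2223, 1576 and 426 CPM. PreNeu-like cells thus held 13.6 times the ProNeu-like level in Ctrl (log2 3.77, 3.69 to 3.84) and 12.4 times in cKO (3.63, 3.55 to 3.71). After the imNeu-like peak the gene was lower again, and mNeu-like cells held 0.311 (Ctrl) and 0.270 (cKO) of the imNeu/mNeu-like level (log2 −1.68 and −1.89). Cybb was the only 1 of the 5 members to lie past 1.5-fold lower at that last step in both libraries, where 4.6% of 5612 genes did. At the step before, from imNeu-like to imNeu/mNeu-like cells, 0 of 5 members were past 1.5-fold in either direction in both libraries, where 9.44% of genes were on the higher and 12.9% on the lower side.

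Cyba, the stabilising partner, had a less steep course. Its levels in Ctrl were 119.8, 194, 409.9, 1447, 1548, 1188 and 899 CPM along the same 7 classes. In cKO they were 156, 352, 658, 1919.8, 2003, 1651 and 1232 CPM. Cyba was 3.42 times the HSC/MPP-like level in ProNeu-like cells of Ctrl and 4.23 times in cKO, and PreNeu-like cells held 3.53 and 2.92 times the ProNeu-like level. It peaked, as Cybb did, in imNeu-like cells, but mNeu-like cells kept 0.757 (Ctrl) and 0.746 (cKO) of the imNeu/mNeu-like level. The RNA of the 2 chains of flavocytochrome b558 therefore stood in another proportion in mNeu-like cells, with 1.47 Cyba UMIs for each Cybb UMI against 0.629 in imNeu-like cells of Ctrl, and 2.89 against 0.901 in cKO.

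Ncf1, the organiser, peaked later in CPM than the membrane chains. It was at 102, 134, 222, 611, 946, 1224 and 982 CPM along the series in Ctrl. In cKO it was at 54.2, 115, 177, 545, 877, 1018 and 682 CPM. The highest level was in imNeu/mNeu-like cells of both libraries, and its interval did not overlap that of the next class. In Ctrl the next places, those of mNeu-like and imNeu-like cells, had overlapping intervals.

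Ncf4, the lipid-binding cytosolic subunit, reached its highest level in the still cycling PreNeu-like cells. Its levels were 39.3, 75.8, 124, 487, 461, 450.1 and 369 CPM in Ctrl. They were 50.4, 108, 163, 575, 545, 509.9 and 442 CPM in cKO. From PreNeu-like to imNeu-like cells the gene was lower by a small amount, with log2 differences of −0.08 in Ctrl (−0.14 to −0.01) and −0.08 in cKO (−0.13 to −0.03). At the last step mNeu-like cells kept 0.821 (Ctrl) and 0.867 (cKO) of the imNeu/mNeu-like level (log2 −0.28 and −0.21), with both intervals below 0.

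Rac2, the GTPase, was the member with the broadest expression and the latest maximum in CPM. It was at 251, 268, 439, 1078, 1073, 1278 and 1325 CPM along the series in Ctrl. In cKO it was at 247, 304, 557, 1328, 1372, 1647 and 1779.85 CPM. Rac2 was the only member whose CPM was highest in mNeu-like cells, although in Ctrl that level and the imNeu/mNeu-like level had overlapping intervals. In raw UMIs per cell Rac2 was highest in PreNeu-like cells, with 11.9 in Ctrl and 26.0 in cKO, against 3.71 and 11.5 in mNeu-like cells. It also had the smallest step from ProNeu-like to PreNeu-like cells of the 5 members, 2.46-fold in Ctrl and 2.38-fold in cKO.

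Between the ends of the series, all 5 members were at least 1.5-fold higher in mNeu-like than in HSC/MPP-like cells of both libraries, as were 20.1% of 7439 genes, while 54.3% of genes were lower. The difference in the summed level was log2 2.90 (2.84 to 2.97) in Ctrl and 3.10 (2.99 to 3.21) in cKO. From PreNeu-like to imNeu-like cells 2 members, Cybb and Ncf1, were past 1.5-fold higher in both libraries, against 10.6% of 8450 genes. Ncf4 and Rac2 differed little at that step, with log2 differences of −0.08 and −0.01 in Ctrl and −0.08 and 0.05 in cKO. At the early step from HSC/MPP-like to the cells of moderate primary granule RNA, 3 members were past the fold in both libraries (background 5.48%), and from these to ProNeu-like cells 4 members were (background 4.93%); the exception at the second step was Cybb, with 1.10-fold in Ctrl and 1.29-fold in cKO.

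Outside the neutrophil series, the oxidase genes split by lineage. Non-cycling monocyte-like cells (331 Ctrl and 167 cKO cells) held Cybb at 1882 CPM in Ctrl and 1702 in cKO, between the imNeu-like and PreNeu-like levels. In cycling monocyte-like cells (220 and 85) the gene was at 748 and 737 CPM, and the non-cycling cells held 2.52 and 2.31 times as much. The organiser and the GTPase were lower in monocytes than in neutrophils, as non-cycling monocyte-like cells held 0.288 (Ctrl) and 0.306 (cKO) of the mNeu-like Ncf1 level and 0.275 and 0.301 of the mNeu-like Rac2 level. Cybb was higher there than in mNeu-like cells, by log2 1.62 in Ctrl and 2.00 in cKO, a direction in which 50.4% of all 6753 genes also lay past 1.5-fold, while Ncf1 and Rac2 were lower past 1.5-fold in both libraries, as 15% of genes were.

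pDC-like cells, the plasmacytoid dendritic cells that make type I interferon, stood out among the remaining classes of Ctrl. They held Cybb at 919 CPM (808 to 1041, 66 cells), a level above that of mNeu-like cells with no overlap of the intervals, and Ncf4 at 52.1 CPM. The 7 pDC-like cells of cKO were too few to be compared and held 943 CPM of Cybb (674 to 1285). In lymphocytes Rac2 was present below its mNeu-like level, with less Cybb beside it. T/NK-like cells held 647 CPM of Rac2 and 85.7 CPM of Cybb in Ctrl, and 775 and 59.6 in cKO, while B-like cells of Ctrl held 451 and 149 CPM. Cyba was at 330 CPM in T/NK-like cells of Ctrl, 545 in those of cKO and 206 in B-like cells of Ctrl. Macrophage-like cells (41 in Ctrl) held Cyba at 781 CPM and Cybb at 327. Of the 18 classes of Ctrl, plasma cell-like cells had the lowest Ncf1, 27.4 CPM from 16 UMIs, with an interval that overlapped that of erythroblast-like cells.

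**Figure D2:**
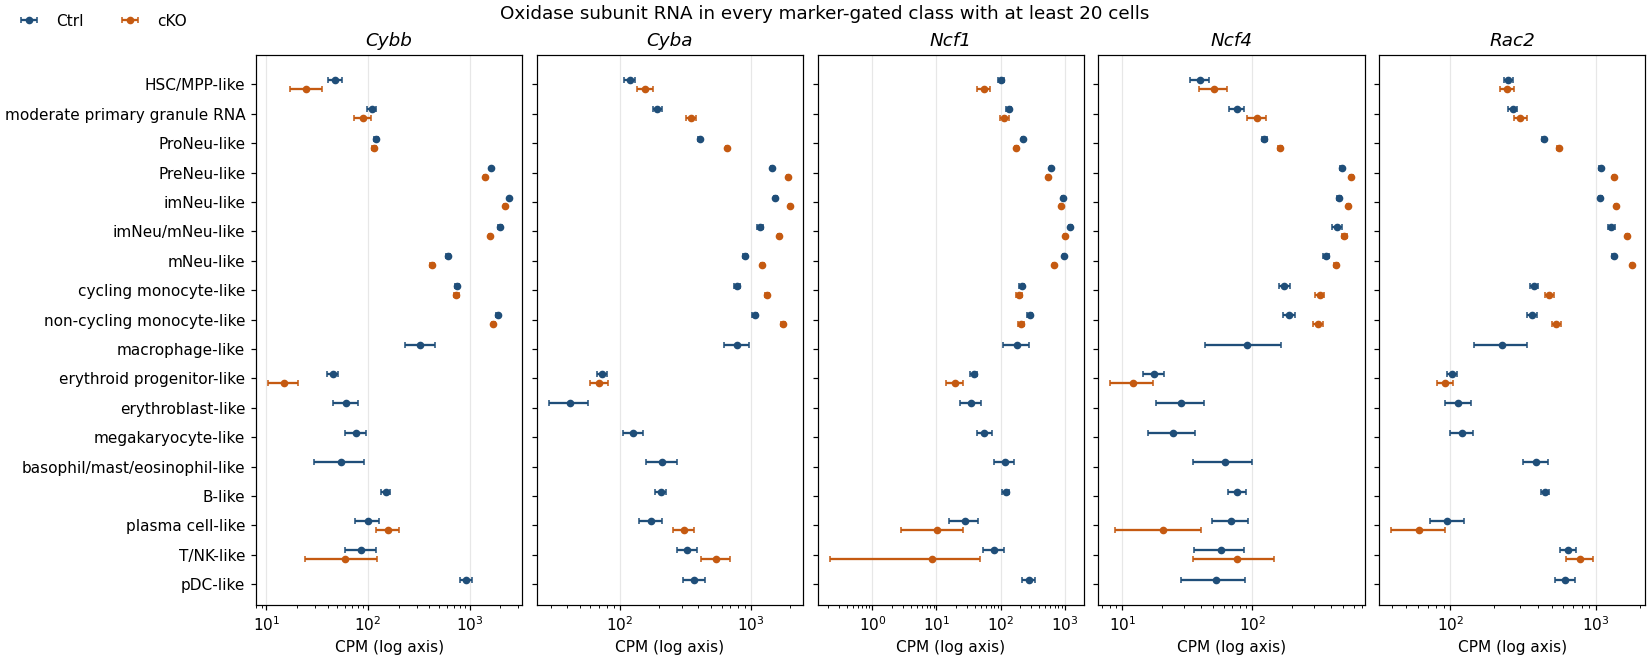
CPM of each oxidase gene on a log axis in every class with at least 20 cells in a library, with exact 95% Poisson intervals; Ctrl and cKO points are offset. Cybb is high in monocyte-like and pDC-like cells as well as neutrophils, Ncf1 and Ncf4 are highest in neutrophils, and Rac2 is also found in T/NK-like, pDC-like and B-like cells.

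The level that free RNA could give was estimated for each class. Secondary granule genes, which stem cells and erythroid cells do not use, made up 3383 CPM of HSC/MPP-like cells in Ctrl, against 42624 CPM of all Ctrl cells. In cKO they made up 1782 CPM of these cells, against 62919 CPM of all cKO cells. A mixture of the whole Ctrl library added in its proportion would give Cybb at 61.4 CPM in the HSC/MPP-like cells of Ctrl. The measured level was 0.777 of that, and in cKO it was 0.923 of the level estimated from the cKO library. In Ctrl, erythroid progenitor-like cells were at 0.927, erythroblast-like at 0.960, T/NK-like at 0.858 and basophil/mast/eosinophil-like at 0.816 of the level so estimated. Cybb in these classes of Ctrl thus lay below the estimate, so free RNA and low expression could not be told apart there. The gates also cap secondary granule RNA in these classes, so the estimate was in part set by them. The 20 T/NK-like cells of cKO were at 1.57 times their estimate, from 7 UMIs. The same estimate was passed 2.52 times by Cybb in ProNeu-like cells, 22.4 times in non-cycling monocyte-like cells and 4.99 times by Rac2 in HSC/MPP-like cells of Ctrl.

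Shares of cells with the RNA followed the same order. With every cell thinned to 1000 UMIs, Cybb was found in 10.1% of ProNeu-like cells (8.13 to 12.3%), 77.0% of PreNeu-like cells (74.3 to 79.5%) and 88.9% of imNeu-like cells (86.9 to 90.6%) of Ctrl. The mNeu-like share was 36.3% (33.7 to 39.0%). In cKO the shares were 13.1%, 74.2%, 87.6% and 27.2%. Erythroblast-like cells, which should lack the gene, gave 6.60% (2.70 to 13.1%) at the same thinned depth in Ctrl; their median depth before thinning was 5701 UMIs, against 10531.5 in PreNeu-like cells. The HSC/MPP-like share of 4.49% in Ctrl lay within that interval. So did the ProNeu-like share of 10.1% and the share of 12.6% in cells of moderate primary granule RNA. In cKO the HSC/MPP-like share was 6.86% (2.80 to 13.6%), against 0 of 65 erythroid progenitor-like cells (0 to 5.52%), and the 14 erythroblast-like cells of cKO were too few to be used. Without thinning, 66.8% of ProNeu-like cells of Ctrl had a Cybb UMI, and 39.8% of HSC/MPP-like cells did at a median of 8962.5 UMIs, which shows how far depth moves such a share. Rac2 was found in 72.9% of mNeu-like cells of Ctrl and 81.6% of those of cKO.

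All 5 members were seen together in few cells at this depth. The share was 10.8% of imNeu-like cells in Ctrl and 12.2% in cKO, 6.44% and 9.43% of PreNeu-like cells and 3.51% and 3.07% of mNeu-like cells. The median imNeu-like cell held 6 oxidase UMIs in 1000 in Ctrl and 7 in cKO. No member was seen in 59.3% (Ctrl) and 58.8% (cKO) of HSC/MPP-like cells, nor in 75.2% and 81.5% of erythroid progenitor-like cells.

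Cybb also differed between 2 sets of mNeu-like cells. Cells were split, after their values had been seen, by whether they had more UMIs of Il1b (a late inflammatory cytokine gene) or of Mmp8 (a granule collagenase gene). The 119 Ctrl cells with more Il1b held Cybb at 111 CPM (72.8 to 163), and the 1122 with more Mmp8 held 671 CPM (643 to 699). In cKO 115 and 1003 cells held 93.1 CPM (68.8 to 123) and 455 CPM (439 to 471). The difference was log2 −2.59 (−3.21 to −2.03) in Ctrl and −2.29 (−2.73 to −1.88) in cKO, so that the Il1b cells came near the level of ProNeu-like cells. Ncf1 was lower in the Il1b cells as well, by −0.87 in Ctrl and −0.82 in cKO. Cyba (−0.11 and −0.03), Ncf4 (−0.05 and −0.17) and Rac2 (−0.16 and −0.05) had intervals that held 0 in both libraries. Median depth was lower in the Il1b cells, with 1853 against 2660 UMIs in Ctrl and 4844 against 6489 in cKO, and its part in the difference was not tested.

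The make-up of the oxidase RNA followed from these courses. Shares are of the UMIs of the 5 members, each molecule being counted once whatever its length, and since capture can differ between genes they are compared across classes and not between members. Rac2 made up 44.9% of the oxidase UMIs of HSC/MPP-like cells in Ctrl and 46.4% in cKO. Cybb made up 9.10% and 6.85% of those of ProNeu-like cells and 31.0% and 24.5% of those of PreNeu-like cells. In non-cycling monocyte-like cells Cybb took 49.6% and 37.6%, and Cyba 28.2% and 39.0%, of the oxidase UMIs.

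**Figure D3:**
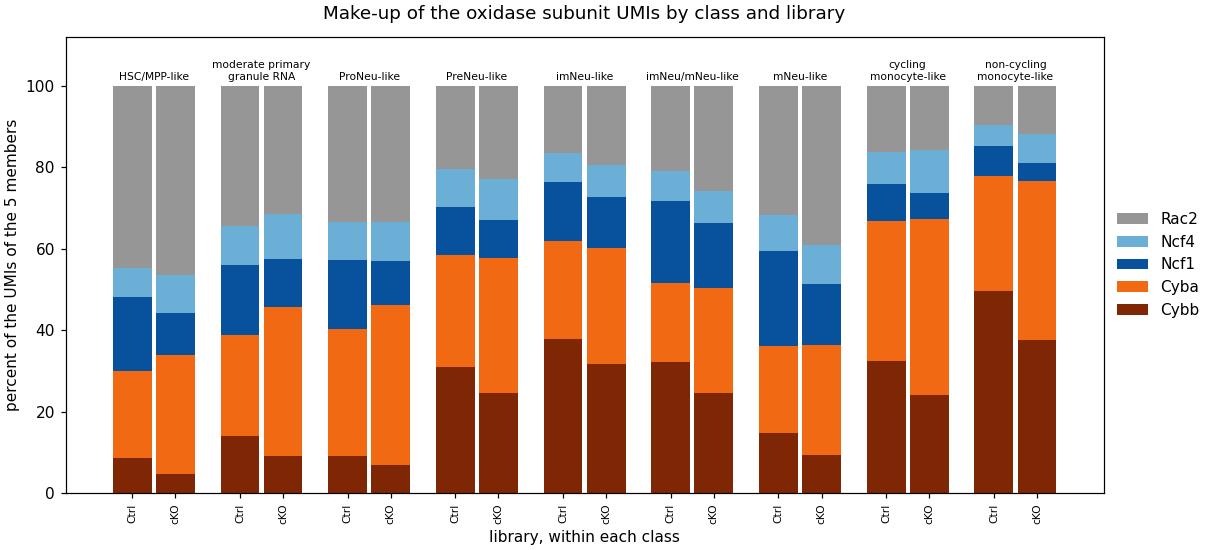
Stacked bars of the percent of oxidase UMIs taken by each of the 5 genes, for both libraries in 7 neutrophil classes and 2 monocyte classes. The Cybb part is 9.10% for ProNeu-like, 31.0% for PreNeu-like and 14.6% for mNeu-like cells of Ctrl, and in all 9 classes shown the Cybb part is narrower and the Cyba part wider in cKO than in Ctrl.

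Between the libraries, the members moved in 2 directions. Cyba was higher in cKO in all 7 classes of the neutrophil series, with log2 ratios from 0.37 to 0.86, every interval above 0. Ncf4 was higher in 7 of 7 classes (0.18 to 0.51, 6 intervals above 0) and Rac2 in 6 of 7 (−0.02 to 0.43, 6 intervals above 0). Cybb was lower in cKO in 7 of 7 classes (−0.94 to −0.07, 5 intervals below 0), as was Ncf1 (−0.91 to −0.11, 6 intervals below 0). The log2 ratio of the sum of the 5 members was −0.07 (−0.20 to 0.05) for HSC/MPP-like cells, 0.31 (0.21 to 0.41) for the cells of moderate primary granule RNA, 0.35 (0.32 to 0.37) for ProNeu-like, 0.14 (0.12 to 0.16) for PreNeu-like, 0.11 (0.10 to 0.13) for imNeu-like, 0.07 (0.03 to 0.11) for imNeu/mNeu-like and 0.12 (0.10 to 0.15) for mNeu-like cells.

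Of the 35 pairs of a member and a neutrophil class, 4 lay past 1.5-fold on the CPM scale, and 17 did when the libraries were scaled by the median of the gene ratios instead. The share of all genes past the fold under that scaling is not given here, so the 17 is not read as a result about the members. The 4 were Cyba in the cells of moderate primary granule RNA (1.81-fold) and ProNeu-like cells (1.61-fold), and Cybb (0.520-fold) and Ncf1 (0.533-fold) in HSC/MPP-like cells. That is 2 of 5 members in HSC/MPP-like cells, where 18.6% of all genes lay past the fold in either direction, 1 of 5 in the moderate class (16.8%), 1 of 5 in ProNeu-like cells (20.5%) and 0 of 5 for PreNeu-like (24%), imNeu-like (30.9%), imNeu/mNeu-like (31.8%) and mNeu-like cells (33.4%). These shares count both directions, and in ProNeu-like cells 2003 of the 2127 genes past the fold were lower in cKO. The Cyba ratio was above those of 99.2% of genes in the moderate class and 99.3% in ProNeu-like cells. In HSC/MPP-like cells 3.30% of genes had a lower ratio than Cybb and 3.85% a lower ratio than Ncf1. In mNeu-like cells the ratios were −0.53 for Cybb (−0.60 to −0.45), 0.45 for Cyba (0.40 to 0.51), −0.53 for Ncf1 (−0.59 to −0.46), 0.26 for Ncf4 (0.17 to 0.35) and 0.43 for Rac2 (0.38 to 0.47). The Cybb levels of HSC/MPP-like cells lay below the free RNA estimate given above in both libraries. Secondary granule RNA in these cells was also lower in cKO, although the cKO library as a whole held more of it. The part of free RNA in this difference was not tested.

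The libraries also differed as a whole, and CPM ratios have to be read against that. The median log2 ratio of all genes was −0.12 for HSC/MPP-like cells, −0.28 for ProNeu-like, −0.34 for PreNeu-like, −0.37 for imNeu-like and −0.37 for mNeu-like cells. Relative to that median, Cyba, Ncf4 and Rac2 stood higher in every neutrophil class. Cybb and Ncf1 stood above it in PreNeu-like and imNeu-like cells and below it in mNeu-like cells, so that scaling by the median of ratios turned both to the higher side in cKO in PreNeu-like, imNeu-like and imNeu/mNeu-like cells, turned Cybb in ProNeu-like cells, and left both lower in mNeu-like cells (−0.15 each).

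**Figure D4:**
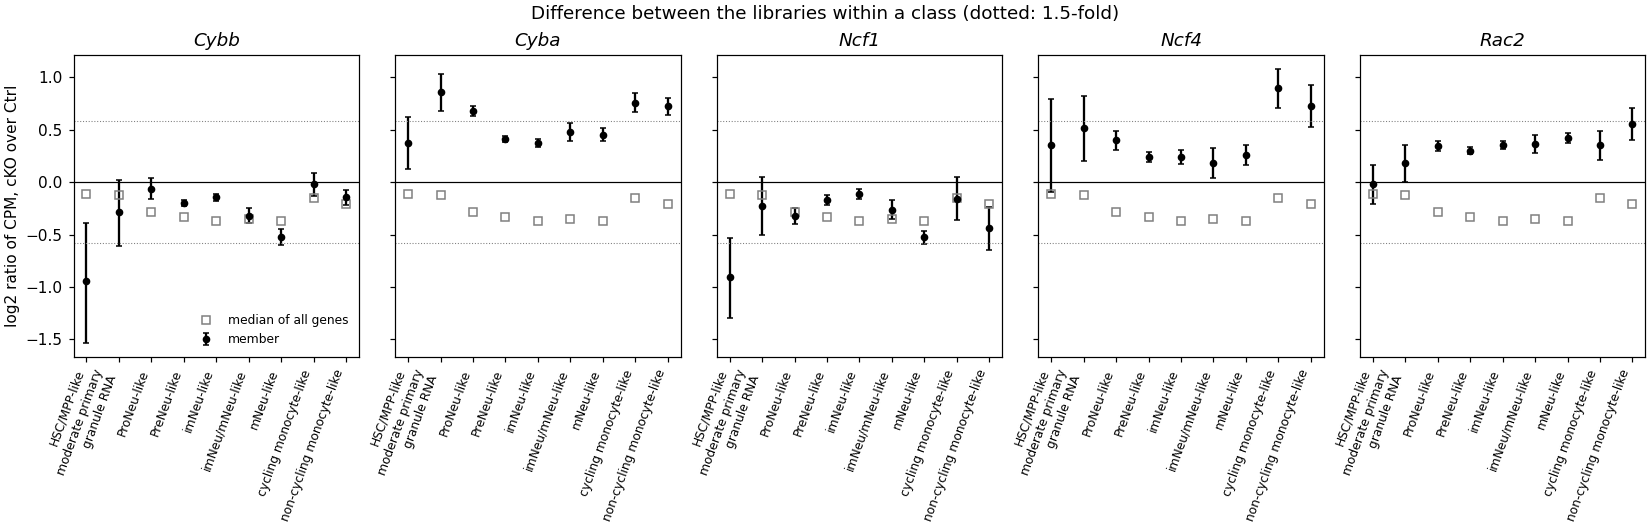
Log2 ratio of CPM, cKO over Ctrl, of each oxidase gene in 7 neutrophil and 2 monocyte classes (points with exact 95% intervals), beside the median of all genes in that class (open squares); dotted lines mark 1.5-fold. Cyba lies above the 0 line in all 9 classes and Cybb below it, and the median of all genes is below 0 throughout.

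Ratios between 2 members within a library need no scaling. The number of Cyba UMIs for each Cybb UMI was 3.43 in Ctrl and 5.75 in cKO for ProNeu-like cells, 0.890 and 1.36 for PreNeu-like, 0.629 and 0.901 for imNeu-like and 1.47 and 2.89 for mNeu-like cells. The ratio was higher in cKO in all 7 classes, from log2 0.52 (0.47 to 0.56) for imNeu-like up to 1.32 (0.72 to 1.92) for HSC/MPP-like cells. It was higher in non-cycling monocyte-like cells as well (0.569 and 1.04, log2 0.87). Ncf4 moved against Ncf1 in the same way, with log2 0.79 (0.68 to 0.90) in mNeu-like cells. The proportion of Ncf1 to Cybb differed less, with 0.376 and 0.384 Ncf1 UMIs for each Cybb UMI for PreNeu-like, 0.385 and 0.394 for imNeu-like and 1.60 and 1.60 for mNeu-like cells. The intervals of these 3 differences held 0 (mNeu-like −0.10 to 0.10). It was lower in cKO in ProNeu-like cells, at 1.85 and 1.55 (log2 −0.26, −0.39 to −0.14), and in non-cycling monocyte-like cells (log2 −0.30, −0.51 to −0.08).

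Depth moved with the result. Among cells of 2000 to 8000 UMIs, a range added after the data were seen, the difference in the Cyba to Cybb ratio was 0.11 (−0.07 to 0.29) in PreNeu-like cells, of which cKO had 63, and −0.58 (−1.28 to 0.12) in ProNeu-like cells, of which it had 42. For imNeu-like cells it was 0.45 (0.36 to 0.53), and for mNeu-like cells 1.56 (1.43 to 1.68), in the same range. The difference was thus larger in mNeu-like cells of this range, and its interval held 0 in PreNeu-like and ProNeu-like cells. The interval held 0 in HSC/MPP-like cells of this range as well (0.61, −0.68 to 1.91). The Ncf1 to Cybb ratio of mNeu-like cells differed there by 0.44 (0.31 to 0.57). Directions of single members turned as well. In ProNeu-like cells of this range the log2 ratio, cKO over Ctrl, was 1.28 for Cybb, 0.30 for Ncf1 and −0.25 for Rac2, each on the other side of 0 from its value over all depths. In PreNeu-like cells it was 0.07 for Cybb and 0.01 for Ncf1, and in HSC/MPP-like cells, of which cKO had 29, it was −0.71 for Ncf4.

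Annotated exon length also moved with it. The 3 members that were higher in cKO were the 3 shortest and the 2 that were lower the 2 longest. With all genes of ProNeu-like cells put in 4 groups of equal size from short to long exons, the median log2 ratio was 0.028, −0.215, −0.345 and −0.493. For mNeu-like cells it was −0.219, −0.334, −0.442 and −0.444. Cyba and Ncf4 belong to group 1, Rac2 and Ncf1 to group 2 and Cybb to group 3. In mNeu-like cells Cyba, Ncf4 and Rac2 were above and Ncf1 and Cybb below the median of their own group. In the 3 classes before them Cybb and Ncf1 lay above it: PreNeu-like cells had −0.20 for Cybb against −0.407 for its group and −0.17 for Ncf1 against −0.272, imNeu-like cells −0.15 against −0.419 and −0.11 against −0.347, and imNeu/mNeu-like cells −0.32 against −0.439 and −0.27 against −0.310. With genes put in 4 groups by level instead, all members belong to the highest group in PreNeu-like to mNeu-like cells. Its median was −0.168 in PreNeu-like cells, with Cybb below it and Ncf1 at −0.167. It was −0.208 in imNeu-like cells, with both above it. In imNeu/mNeu-like cells it was −0.243 and in mNeu-like cells −0.25, with both below it. Cyba, Ncf4 and Rac2 were above it in each. The part of exon length or level in the difference between the libraries was not tested, and with 1 library per group it cannot be told apart from genotype.

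**Figure D5:**
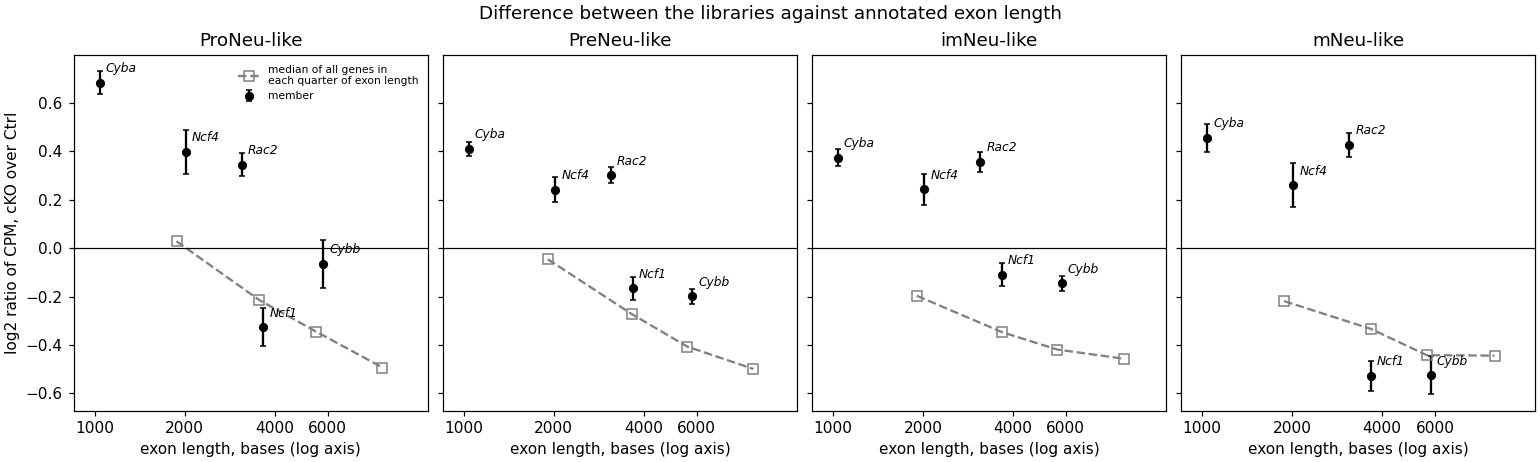
Log2 ratio of CPM, cKO over Ctrl, of the 5 oxidase genes against annotated exon length in bases (log axis) in 4 classes, with exact 95% intervals, beside the median of all genes in each of 4 groups of exon length (squares joined by a dashed line). The median of all genes is lower at each longer group in each class shown, and Cyba, Ncf4 and Rac2 lie above that line in all 4.

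In monocyte-like cells the same 3 members were higher in cKO. Ncf4 was at 192 CPM in Ctrl and 318 in cKO in non-cycling (log2 0.73, 0.53 to 0.93) and at 176 and 328 in cycling cells (0.90, 0.71 to 1.08). Cyba was at 1071 and 1767 CPM in non-cycling (0.72) and at 787 and 1331 in cycling cells (0.76). These 2 members were past 1.5-fold in both monocyte classes, where 26.7% of genes in non-cycling and 21.1% in cycling cells were, counting both directions. The Cyba ratio was above those of 97.4% of genes in non-cycling and 98.0% in cycling cells, and the Ncf4 ratio above those of 97.5% and 98.9%. Cybb differed little, by −0.14 (−0.22 to −0.07) and −0.02 (−0.13 to 0.08).

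Genes whose RNA followed the same course were sought over 30 points (classes of at least 20 cells in either library) among 7199 genes. For Cybb the likest were Aldh3b1 (Pearson r = 0.94 of log2 CPM), Lyz2 (0.90), the lysozyme of myeloid cells, and Vsir (0.89), which encodes a checkpoint receptor. For Cyba they were Ncf4 (0.92), Fcer1g (0.91), the Fc receptor common gamma chain, and the long noncoding RNA Morrbid (0.91). Ncf1 was closest to Pygl (0.97), the liver-type glycogen phosphorylase, Pram1 (0.97) and Slc31a2 (0.95). Ncf4 was closest to Hp (0.96), which encodes haptoglobin, Prdx5 (0.95) and Mcemp1 (0.94). Rac2 was closest to Gpsm3 (0.93), Arhgap4 (0.92) and Cnn2 (0.92). Only Cyba and Ncf4 had another member among the first 10 genes in both directions, and Rac2 and Cybb were the least alike pair (r = 0.68). The points share libraries and depth, so these values describe a resemblance and carry no test.

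Other phagocyte oxidase proteins and direct regulators were read from a fixed list. Rac1, the widely expressed relative of Rac2, went from 139.8 CPM at the HSC/MPP-like end to 213 CPM at the mNeu-like end in Ctrl and from 141 to 169.9 CPM in cKO, a smaller difference than that of Rac2. Cybc1, a chaperone of the flavocytochrome, went from 34.9 to 52.1 CPM between the same ends in Ctrl and from 26.3 to 45.8 in cKO. Prdx6, a peroxiredoxin that also binds the oxidase, was lower in mNeu-like than in HSC/MPP-like cells of both libraries, by log2 −0.86 in Ctrl and −1.13 in cKO. Between the libraries, Hvcn1, the proton channel that balances the charge moved by the oxidase, was past 1.5-fold lower in mNeu-like cells of cKO (24.8 CPM from 91 UMIs in Ctrl and 8.56 CPM from 63 in cKO), as 30.4% of genes were.

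Genes of NADPH supply were also higher in mNeu-like than in HSC/MPP-like cells, where 5 of the 7 genes of 8 with enough UMIs were past 1.5-fold higher in both libraries and 1, Me2, was lower; of all genes, 20.1% were past the fold higher and 54.3% lower in this comparison. G6pdx, the first enzyme of the pentose phosphate pathway, was at 247 CPM in mNeu-like cells of Ctrl and 412 in cKO (log2 0.74, 0.63 to 0.84), the only gene of the list past the fold on the higher side there, where 2.92% of genes were. H6pd (24.0 and 13.2 CPM) and Me2 (19.6 and 11.7 CPM) were past it on the lower side, as 30.4% of genes were. Pgd, the next NADPH-making enzyme, was at 911 and 864 CPM, and Taldo1, the transaldolase of the same pathway, at 1833 and 1743. Of the 12 genes of 13 for handling superoxide and peroxide that could be compared, 3 (Prdx5, Txn1 and Gsr) were higher and 7 lower in mNeu-like cells, against 20.1% and 54.3% of all genes. Sod1, the cytosolic superoxide dismutase, went from 317 to 49.1 CPM in Ctrl and from 277 to 17.4 in cKO, and Gsr, glutathione reductase, from 78.1 to 1972 and from 46.5 to 1323. None of 7 other NADPH oxidase genes and organisers (Nox1, Nox3, Nox4, Noxo1, Noxa1, Duox1 and Duox2) reached 50 UMIs in any of the 7 neutrophil classes.

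Upstream of the complex, 6 of 12 exchange factors and kinases were past 1.5-fold higher in mNeu-like than in HSC/MPP-like cells and 1, Tiam1, was lower, against 20.1% and 54.3% of all genes. Prkcb, a protein kinase C that phosphorylates p47phox, went from 8.64 CPM at the HSC/MPP-like end to 189 in mNeu-like cells of Ctrl, and from 4.65 to 132 CPM in cKO. Between the libraries none of those with enough UMIs was past the fold on the higher side in any of the 7 neutrophil classes. Few of all genes were on that side, 2.92% in mNeu-like cells, so this count is not read as a result about the list. On the lower side 5 of 12 were past the fold in ProNeu-like cells, where 19.3% of all genes were. Of the 7 of 8 transcription factors known to act on oxidase genes that could be compared, 4 were higher and 3 lower in mNeu-like cells, against the same 20.1% and 54.3%. Spi1, which encodes PU.1, went from 119.8 CPM at the HSC/MPP-like end to 575 in mNeu-like cells of Ctrl, and from 130.1 to 666 CPM in cKO. Cebpe, a granulocyte factor of the secondary granule stage, was at 599 CPM for PreNeu-like and 103 CPM for mNeu-like cells of Ctrl, and at 592 and 47.0 CPM in cKO. Irf8, a monocyte and dendritic cell factor, was lower in mNeu-like cells of both libraries, from 142 to 19.4 CPM in Ctrl and from 95.3 to 3.26 in cKO. Cebpe was itself a gate marker, so its course along the classes was in part set by the gates, as was that of Mpo, and Il1b and Mmp8 were gate markers too.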

How the data were processed

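The 2 deposited libraries of mouse bone marrow were analysed. Per the labels, the authors counted UMIs for every gene in each barcode, using Cell Ranger 5.0.0 on mm10 (GRCm38), from a droplet 3′ protocol; the deposited counts are not normalized and are filtered to cell barcodes. Cells were kept at 200 to 9000 detected genes, at most 30% mitochondrial UMIs and at least 1000 UMIs. No doublet caller was run; cells that met more than 1 gate (2 in Ctrl and 0 in cKO) were left out. Gates were limits on summed marker UMIs per 10000 UMIs. CPM is 1000000 times the UMIs of a gene summed over a class, divided by all UMIs of the class. Fold differences were called at 1.5-fold, and used genes with at least 50 UMIs over both libraries and classes of at least 20 cells. The study gives the threshold for its differential genes as log(1.5) without naming the base, so its working limit may differ from 1.5-fold. With 1 library per group there was no test; exact Poisson and binomial intervals, and normal intervals on the log scale for proportions between members, were computed with scipy 1.17.1 (Python 3.11.15). The interval and thinning code was tested on simulated data. Promoter sequences came from RefSeq and gene models from GENCODE vM21. The genes, lists and gates were chosen with earlier results of these data known; named genes were the members, Map4k4, the 3 likest genes of each member and genes of 6 lists. Alternatives covered cell filters, gate width, denominators, scaling, folds and thinning depth. Some genes of these lists are not reported here.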

Additional observations from a re-analysis of the deposited data

Results flagged for a closer look

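For Cybb and Ncf4, differences between the libraries past 1.5-fold went opposite ways in different classes; the difference between classes was not tested, and each rests on 1 library per group. Cybb was higher in cKO in plasma cell-like cells (log2 0.66, from 58 UMIs in Ctrl and 61 in cKO), although it was lower in HSC/MPP-like (−0.94) and erythroid progenitor-like cells (−1.60). Secondary granule RNA was lower in cKO in each of these classes, plasma cell-like cells included (2687 CPM in Ctrl and 1780 in cKO). The cKO library as a whole held more of it than the Ctrl library. The part of this RNA in the differences was not tested. Ncf4 was higher in cKO in cycling (0.90) and non-cycling monocyte-like cells (0.73). It was lower in plasma cell-like cells (−1.74, from 40 and 8 UMIs), the pair below the limit, so no fold difference was called there.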

How the results depend on the processing

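No paired analysis was possible because each group has 1 library. The summed level, cKO over Ctrl, kept its direction in ProNeu-like (0.35 as reported), PreNeu-like (0.14), imNeu-like (0.11) and mNeu-like cells (0.12) under every alternative tried, but not its size. In ProNeu-like cells the log2 ratio was 0.27 with wider gates, 0.37 as a mean of per-cell CPM, 0.41 without haemoglobin, immunoglobulin, mitochondrial and ribosomal genes in the denominator, and 0.42 among cells of 2000 to 8000 UMIs. In PreNeu-like cells it was 0.11, 0.16 and 0.11 under the last 3 of these, and in mNeu-like cells of 2000 to 8000 UMIs it was 0.00899. Median-of-ratios scaling gave 0.63, 0.48, 0.48 and 0.50 in the 4 classes. The difference of mNeu-like over HSC/MPP-like cells was 2.53 in Ctrl (2.90 as reported) and 2.58 in cKO (3.10) with that shorter denominator, 2.99 in Ctrl without gate markers in the denominator, 2.80 in Ctrl among cells of 2000 to 8000 UMIs, and 2.98 in cKO with wider gates. The number of gene and class pairs past the fold (4 of 35) was 17 under median-of-ratios scaling, 0 at a fold of 2 and 19 at a ratio of 5 to 4. The shares of all genes under these settings are not given here, so the counts show only how the number depends on the setting. Beyond the shift of all genes that median-of-ratios scaling removes by construction, the cause was not tested. The range of 2000 to 8000 UMIs was chosen after seeing the data. With 1 library per group, counting error is the only error that could be measured, and the rarer classes of cKO hold few cells.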
